A study of Mus musculus with 3 samples.

Results

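The 10 circadian clock genes Clock, Arntl (also known as Bmal1), Per1, Per2, Per3, Cry1, Cry2, Nr1d1, Nr1d2 and Dbp were taken by gene name from the 55573 genes listed, and each name matched 1 row. Their RNA was read by UMI-RNAseq, in which a random tag on each molecule lets PCR copies be removed. It was applied to 3 libraries of NIH3T3, a mouse fibroblast cell line grown in DMEM with fetal bovine serum, penicillin and streptomycin. Per the methods, the cells met trypsin and a wash before lysis, and no other treatment is described. The 3 libraries, named library 1, library 2 and library 3 after their replicate numbers, share this 1 condition, so no treatment, time or genotype could be compared. The methods describe no step that would bring the clocks of the cells to a common phase and give no hour of harvest. Nothing states that each library had a culture of its own, so the SD values below measure the spread between these libraries, which may be technical. The p-values come from these libraries too. They do not measure spread, since any ratio with the same sign in all 3 gets the same p.

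The clock of mammalian cells is a loop of transcription and repression. CLOCK and ARNTL bind together to E-boxes in DNA and activate the Per and Cry genes, whose proteins return to the nucleus and repress CLOCK and ARNTL. In a second loop, the nuclear receptors encoded by Nr1d1 and Nr1d2 (REV-ERB alpha and beta) repress Arntl through elements that the activating ROR receptors also bind. DBP is an output factor of the E-box loop that activates genes through D-boxes. In cultured fibroblasts each cell keeps its own rhythm, and without a synchronizing signal a bulk sample averages over cells in different phases.

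The libraries held 14423209, 13959723 and 14307241 counted fragments, recovered from the steps between the deposited values, of which 9491, 9195 and 9639 fell on the clock genes. All 10 fibroblast markers examined had a mean FPKM (fragments per kilobase of gene length and 1000000 counted fragments) of at least 1, from 2.97 for S100a4 to 4377 for Fn1. The extraction text of the labels mentions retina, but 9 of 10 retina markers stayed below a mean FPKM of 1, with Nrl at 0. The exception was Rbpms at 57.2 FPKM, a gene that cells outside the retina also express. The summed FPKM of the retina list lay between 56.1 and 62.1, against 9370 to 9493 for the fibroblast list. None of 4 epithelial markers reached an FPKM of 1, with Epcam and Krt18 at 0 and Cdh1 the highest at 0.442 FPKM.

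The DNA elements named above are short enough to be read directly in the promoters of the clock genes. RefSeq windows on GRCm38.p6, from 250 bases before to 50 bases after a start site, were given for 9 of the 10 genes, the exception being Per2. They are shown because the loops act through these elements, and no binding was measured here. Letters were searched on both strands, and in each stretch only those of the element named are given in capitals.
Per1 E-box, chr11:69098763-69098808, plus strand: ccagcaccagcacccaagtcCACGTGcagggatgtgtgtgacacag
Cry1 E-box, chr10:85185089-85185134, minus strand: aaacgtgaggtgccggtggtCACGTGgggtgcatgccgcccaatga
Per3 first D-box, chr4:151044843-151044890, minus strand: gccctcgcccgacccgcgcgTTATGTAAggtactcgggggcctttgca
Per3 second D-box, chr4:151044796-151044843, minus strand: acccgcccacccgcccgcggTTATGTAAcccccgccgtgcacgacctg
Arntl ROR element, chr7:113207531-113207557, plus strand: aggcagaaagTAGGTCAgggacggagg

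The E-box CACGTG was found for 2 of the 9 clock genes with a window, Per1 and Cry1, and for 8.09% of 27025 genes with a window. Its first base lay 166 bases before a start site of Per1 and 60 bases before that of Cry1. The related letters CACGTT, which neither contain nor are contained in another of the motifs, were found for Cry1, Cry2 and Nr1d1 and for 5.44% of all genes. A D-box, searched as TTATGTAA or TTACGTAA, was found only for Per3 among the 9 clock genes, at 205 and 158 bases before the start site, and for 1.23% of all genes. The core letters of a ROR element, TAGGTCA, were found only for Arntl among the 9, beginning 30 bases after a start site, and for 2.97% of all genes. The cAMP element TGACGTCA was found for 0 of the 9 and for 2.03% of all genes. These matches are descriptions of the windows, and no match says only that the letters are not in this window.

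All clock genes were detected in each library, and their means spanned 3.0 to 51.7 FPKM. In FPKM, Nr1d2 and Per1 were the most abundant, Cry1, Arntl and Nr1d1 followed close together, and Dbp was the least abundant. A mean of at least 1 FPKM was reached by 10 of 10 clock genes, against 23.2% of all genes listed and 49.2% of the protein-coding genes of GENCODE M21, the kind to which the 10 belong. Among the 12905 genes at or above this limit, the clock genes ranked between 2700 and 10813.

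**Figure D1:**
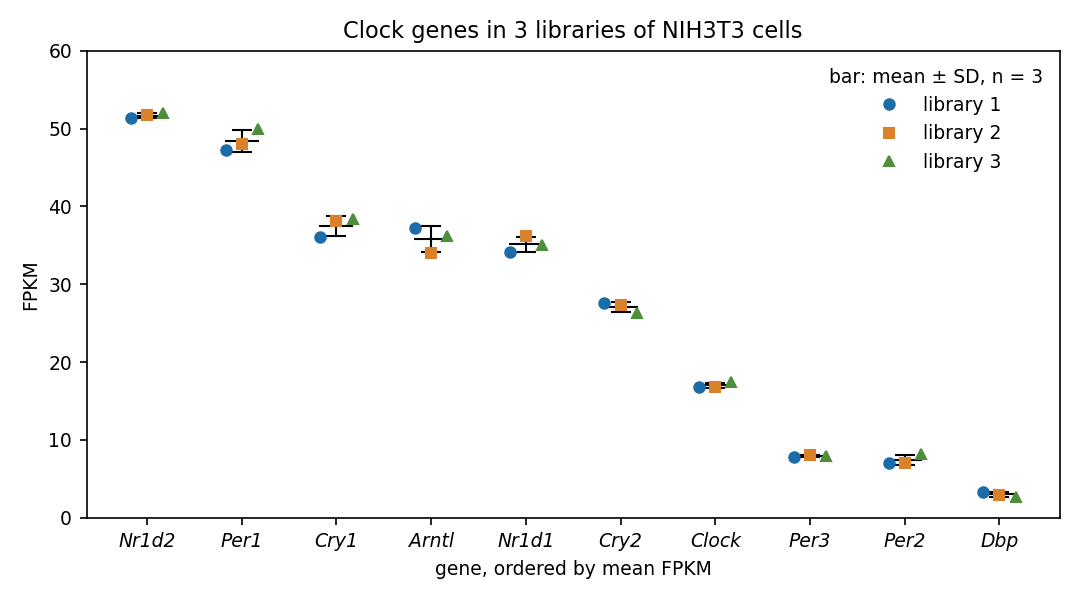
FPKM (y axis, linear) of the 10 clock genes (x axis, ordered by mean) in libraries 1, 2 and 3, with the mean and SD over the 3 libraries as bars. The libraries lie close together for each gene, from about 51.7 FPKM for Nr1d2 down to 3.0 for Dbp, and the ranges of Cry1, Arntl and Nr1d1 overlap, as do those of Per3 and Per2.

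Of the activators, Arntl was the more abundant. Clock (ENSMUSG00000029238, chromosome 5 from 76209868 to 76304792, minus strand, GRCm38) encodes a basic helix-loop-helix PAS protein and had 16.8, 16.8 and 17.4 FPKM in libraries 1, 2 and 3. Its mean of 17.0 ± 0.368 FPKM (SD, n = 3) exceeded that of 49.2% of the genes at or above 1 FPKM. Arntl (ENSMUSG00000055116, chromosome 7 from 113207465 to 113314126, plus strand), which encodes the partner of CLOCK, had 37.2, 34.0 and 36.2 FPKM. Its mean was 35.8 ± 1.65 FPKM (SD, n = 3), with library 2 the lowest. The ranges of the activators did not overlap, and Arntl lay above Clock in 3 of 3 libraries, by 2.10-fold ± 0.0952 (SD, n = 3). When the signs of the log2 ratio were permuted over the libraries, the exact two-sided test gave p = 0.25, the smallest p that 3 libraries allow. Adjusted over the 7 ratios examined by the Benjamini-Hochberg method it was 0.292, so no ratio could pass 0.05. The same p and adjusted p were obtained for the other ratios given here, apart from that of Per2 to Per3.

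Among the Per genes, whose proteins form the repressor complex with the CRY proteins, Per1 dominated. Per1 (ENSMUSG00000020893, chromosome 11 from 69095217 to 69109960, plus strand) had 47.2, 48.0 and 50.0 FPKM, with a mean of 48.4 ± 1.42 (SD, n = 3). Per2 (ENSMUSG00000055866, chromosome 1 from 91415982 to 91459324, minus strand) had 7.04, 7.06 and 8.14 FPKM, with a mean of 7.41 ± 0.626 (SD, n = 3). Per3 (ENSMUSG00000028957, chromosome 4 from 151003652 to 151044665, minus strand), the family member least required for the rhythm in mice, had 7.84, 8.12 and 8.0 FPKM, with a mean of 7.98 ± 0.139 (SD, n = 3). Per1 was far above both others in each library, whereas the ranges of Per2 and Per3 overlapped, since library 3 was high for Per2. Per1 made up 75.9% ± 0.243 (SD, n = 3) of the summed FPKM of the Per genes. It lay above Per2 by 6.54-fold ± 0.355 and above Per3 by 6.06-fold ± 0.168 (SD, n = 3). The ratio of Per2 to Per3 was 0.899, 0.871 and 1.02 in libraries 1, 2 and 3, with p = 0.5 in the exact sign-flip permutation test and 0.5 after adjustment, so no order between them was resolved in FPKM.

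The Cry genes, which encode the strongest repressors of the loop, were closer to each other. Cry1 (ENSMUSG00000020038, chromosome 10 from 85131700 to 85185064, minus strand) had 36.0, 38.1 and 38.4 FPKM, with a mean of 37.5 ± 1.27 (SD, n = 3). Cry2 (ENSMUSG00000068742, chromosome 2 from 92403646 to 92434043, minus strand) had 27.6, 27.4 and 26.3 FPKM, with a mean of 27.1 ± 0.672 (SD, n = 3). In FPKM the ranges did not overlap, and Cry1 was above Cry2 by 1.39-fold ± 0.0754 (SD, n = 3). This order rests on the gene lengths, as shown further down. The Per and Cry genes together summed to 128 ± 2.56 FPKM and the activators to 52.8 ± 1.79 FPKM (SD, n = 3). The repressor sum was 2.43-fold ± 0.104 (SD, n = 3) above the activator sum, and higher in 3 of 3 libraries. It adds more genes than the activator sum, so this factor compares sums and not levels per gene. By mean FPKM, Per1 and Cry1 lay above Arntl, Cry2 between Arntl and Clock, and Per2 and Per3 below Clock. In FPKM, Per1 supplied 37.7% of the repressor sum, Cry1 29.2% and Cry2 21.1%, whereas Per2 and Per3 supplied 5.77% and 6.22%. With fragments divided by the longest isoform, Per1 supplied 49.4%, Cry1 17.5% and Cry2 20.05%, and without division by length 52.4%, 12.0% and 18.1%.

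Of the nuclear receptor genes, Nr1d2 led the clock genes in FPKM, whereas Nr1d1 lay close to Arntl and Cry1. Nr1d1 (ENSMUSG00000020889, chromosome 11 from 98767932 to 98775333, minus strand) had 34.2, 36.2 and 35.1 FPKM, with a mean of 35.2 ± 0.979 (SD, n = 3). Nr1d2 (ENSMUSG00000021775, chromosome 14 from 18204054 to 18239127, minus strand) had 51.3, 51.7 and 52.0 FPKM, with a mean of 51.7 ± 0.318 (SD, n = 3), the highest of the clock genes. In FPKM, Nr1d2 lay above Nr1d1 in each library, by 1.47-fold ± 0.0365 (SD, n = 3), and the ranges did not overlap. Dbp (ENSMUSG00000059824, chromosome 7 from 45705088 to 45710203, plus strand) had 3.32, 2.95 and 2.73 FPKM, with a mean of 3.0 ± 0.298 (SD, n = 3), higher than 16.2% of the genes at or above 1 FPKM. It rested on only 65, 56 and 53 fragments. The exact Clopper-Pearson 95% intervals of its FPKM were 2.56 to 4.23 in library 1, 2.23 to 3.84 in library 2 and 2.04 to 3.57 in library 3. These intervals, which cover counting error only, overlapped between all 3 libraries. Overlap is not a test, and a difference in Dbp between the libraries was not tested. Its spread is set beside counting error further down.

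Ordered by mean FPKM, the clock genes ran Nr1d2, Per1, Cry1, Arntl, Nr1d1, Cry2, Clock, Per3, Per2, Dbp. Of the 9 neighbouring pairs in this order, 6 had ranges that did not overlap between the libraries. The exceptions were Cry1 and Arntl, Arntl and Nr1d1, and Per3 and Per2. The widest steps were the 2.47-fold step from Per2 to Dbp and the 2.13-fold step from Clock to Per3.

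The FPKM of a gene depends on the length by which its fragments are divided. For all 10 clock genes, multiplying FPKM by the mean length of the annotated isoforms gave whole fragments, so short annotated isoforms enter the divisor although they can hold few fragments. Cry1 is the clearest case, with isoforms of 177, 406, 506 and 3026 nt, of which those of 177 and 3026 nt are annotated as protein coding, and a mean of 1029 nt. Per2 has a coding isoform of 5833 nt and a processed transcript of 231 nt, which gives a mean of 3032 nt. The length of the longest isoform was 2.94 times the mean for Cry1, 2.40 times for Nr1d2, 1.99 times for Clock, 1.92 times for Per2 and 1.86 times for Cry2. For Nr1d1, Arntl, Per3, Dbp and Per1 the factor lay between 1.35 and 1.55.

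With fragments divided by the longest isoform instead, and again per kilobase and 1000000 fragments, Per1 became the most abundant clock gene, at 35.9 ± 1.05 (SD, n = 3). Arntl followed at 23.5 ± 1.08, Nr1d1 at 22.6 ± 0.630 and Nr1d2 at 21.5 ± 0.132 (SD, n = 3). On this scale Nr1d1 lay 1.05-fold ± 0.0264 above Nr1d2, in 3 of 3 libraries. Per longest isoform Cry1 had 12.3, 12.9 and 13.1 and Cry2 14.8, 14.7 and 14.2, so that Cry2 now lay above Cry1 in each library, by 1.14-fold ± 0.0627 (SD, n = 3). In fragments alone, Cry2 had 850, 817 and 805 and Cry1 535, 547 and 565, again with Cry2 higher. With division by the union of annotated exons, which was added as a setting once values were known, Cry1 lay above Cry2 by 1.26-fold ± 0.0687 (SD, n = 3). The order of Cry1 and Cry2 and that of Nr1d1 and Nr1d2 were therefore not fixed by these data without knowledge of the isoforms in use.

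**Figure D2:**
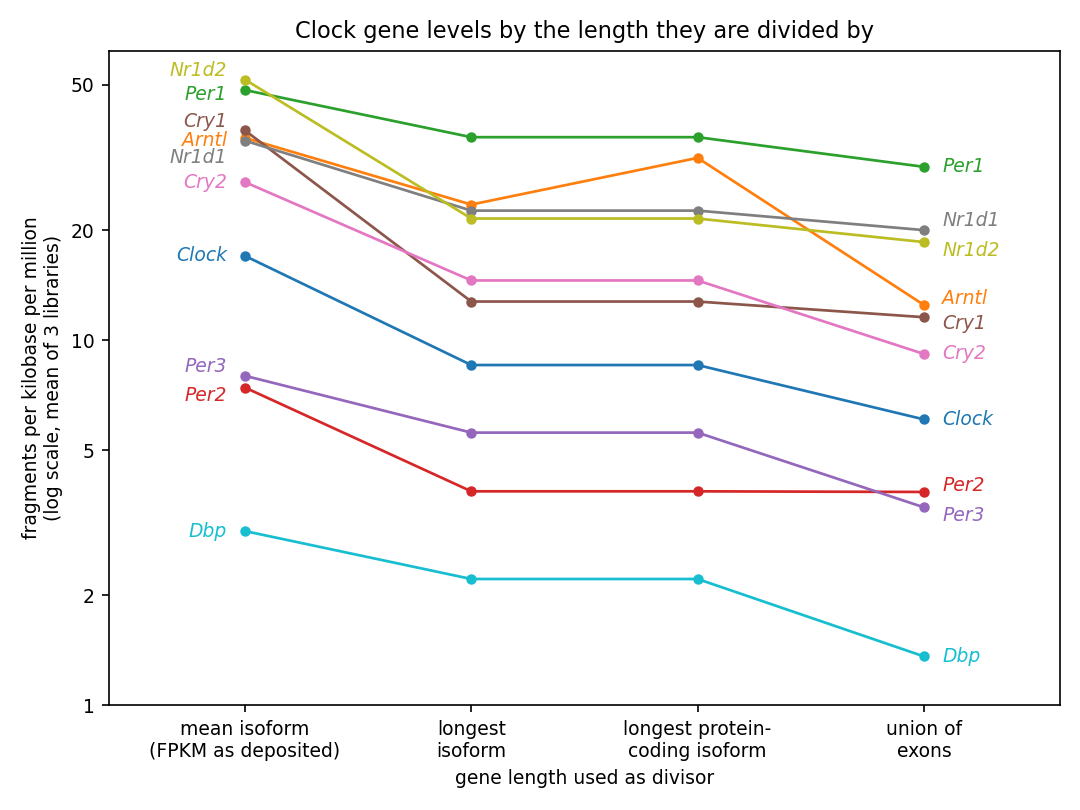
Mean level of each clock gene over the 3 libraries (y axis, fragments per kilobase and 1000000 fragments, log scale) when the same fragments are divided by the mean isoform length behind the deposited FPKM, the longest isoform, the longest protein-coding isoform or the union of exons (x axis). The lines of Cry1 and Cry2 and of Nr1d1 and Nr1d2 cross between the first and the second setting, and Dbp stays at the bottom.

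Of the 45 pairs of clock genes, 39 kept their FPKM order per longest isoform, 39 per union of exons and 38 without division by length. The relations that follow held on each of these scales. Per1 lay above Per2 by 6.54-fold in FPKM, 9.35-fold ± 0.507 per longest isoform and 7.79-fold ± 0.422 per union of exons (SD, n = 3). Arntl lay above Clock by 2.10-fold in FPKM and 2.75-fold ± 0.124 per longest isoform (SD, n = 3). The longest isoform of Arntl, of 3995 nt, is annotated as a retained intron, and with its longest protein-coding isoform of 2976 nt the factor was 3.69 ± 0.167 (SD, n = 3). Without any division by length, the step from Clock to Arntl was 1.13-fold ± 0.0510 (SD, n = 3), since Clock has the greatest mean isoform length of the clock genes. The repressor sum, which adds more genes, stayed above the activator sum. The factor was 2.27 ± 0.0984 per longest isoform, 1.82 ± 0.0829 per longest protein-coding isoform and 3.12 ± 0.130 per union of exons (SD, n = 3). Dbp was the least abundant clock gene on each scale, at 2.22 ± 0.220 per longest isoform and 1.36 ± 0.135 per union of exons. The settings with protein-coding isoforms and with the union of exons were chosen after the data were seen.

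**Figure D3:**
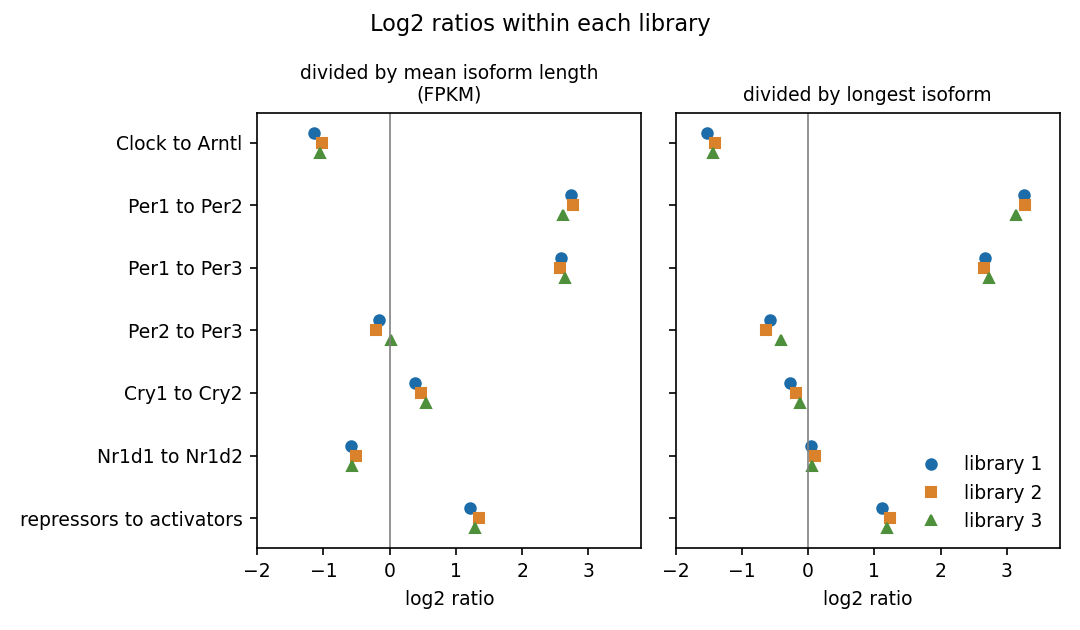
Log2 ratios within each library (x axis) for the pairs of clock genes and for the repressor sum over the activator sum (y axis), with fragments divided by the mean isoform length on the left and by the longest isoform on the right. In all 3 libraries Cry1 to Cry2 and Nr1d1 to Nr1d2 change sides of 0 between the panels, while Clock to Arntl, Per1 to Per2, Per1 to Per3 and repressors to activators keep theirs.

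The spread of the clock genes between libraries was next compared with counting error. Their coefficient of variation was lowest for Nr1d2, at 0.615% against 2.65% from counting error alone, and highest for Dbp, at 9.93% against 13.1%. For Per2 it was 8.44% against 5.59%, and for Arntl 4.61% against 2.74%. The dispersion index, the chi-square of the fragments over the libraries divided by its degrees of freedom, is near 1 when counting error alone is present. It exceeded 3 for 0 of 10 clock genes, against 9.72% of the 12803 genes tested, all at or above 1 FPKM on average. An index above 2 was found for 3 of 10 clock genes and for 19.9% of all genes tested. The highest values were 2.82 for Arntl, 2.29 for Per2 and 2.07 for Per1, and the other 7 clock genes stayed at or below 0.677. For Arntl the index rose to 5.41 when library 3 was left out, which sets library 1 with 1407 fragments against library 2 with 1244. Without library 2 it was 3.91 for Per1 and 3.44 for Per2, and without library 1 it was 3.24 for Per2. With a library left out, between 10.8% and 13.2% of all genes tested exceeded 3, so these counts of 1 or 2 clock genes are near the background too.

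Most clock genes shared no sequence with another annotated gene at the length of a 75-nt word. For Clock, Arntl, Per1, Per2, Per3 and Cry1, 0% of the 75-nt words of their annotated transcripts occurred, on either strand, in a transcript of another gene. The paralogues of the Per, Cry and Nr1d families therefore shared no such word with each other. For Dbp the share was 15.3%, all of it with Sphk2, which encodes a sphingosine kinase and overlaps the exons of Dbp on the opposite strand over 539 of 2993 nt. Sphk2 had 17.4, 18.3 and 19.7 FPKM. For Nr1d1 the share was 6.50%, with Thra, the thyroid hormone receptor alpha gene, which overlaps it on the opposite strand over 263 of 3077 nt and had 58.0, 59.3 and 56.2 FPKM. For Cry2 it was 2.40%, with the noncoding gene D930015M05Rik at 1.34, 1.20 and 1.47 FPKM. For Nr1d2 it was 2.30%, with the gene AC170187.1 (named after its values were seen), which was listed at 0 in each library. Whether counting used the strand is not given in the sources used here, and the part of these overlaps in the levels of Dbp, Nr1d1 and Cry2 was not tested.

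Of 22 companion genes of the clock, 17 averaged 1 FPKM or more, against 23.2% of all genes listed and 49.2% of protein-coding genes. Among those below it were Npas2, Arntl2, Rorb and Fbxl21. Npas2, which can replace Clock in neurons, had 0, 3 and 0 fragments, and Arntl2, a paralogue of Arntl, had 0.429, 0.576 and 0.562 FPKM. Of the ROR receptors that compete with the REV-ERB proteins, Rora had 17.0, 17.7 and 17.4 FPKM. Rorb had 0 fragments in each library, which allows up to 0.0419 FPKM at a floor of 3 fragments. Fbxl21, which encodes an F-box protein that binds CRY proteins, had 0.578, 0.562 and 0.411 FPKM.

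Among the other companion genes, the D-box factors related to Dbp differed widely. Tef had 51.0, 56.7 and 55.9 FPKM, Hlf 5.22, 4.78 and 4.80 FPKM, and the D-box repressor gene Nfil3 28.5, 26.1 and 26.4 FPKM. The range of Dbp, from 2.73 to 3.32 FPKM, lay below those of Tef, Hlf and Nfil3. With the longest isoform as divisor, Hlf came to 1.83 on average, below Dbp at 2.22, so the order of these 2 genes also depends on length. The order of Tef and Nfil3 does too. Tef averaged 17.6 per longest isoform and 9.84 per union of exons, below Nfil3 at 27.0 in each case. Without division by length Tef was higher, at 77.4 against 54.6. The E-box repressor gene Bhlhe40 had a mean of 54.1 ± 1.66 FPKM and its paralogue Bhlhe41 1.91 ± 0.0632 FPKM (SD, n = 3). Cipc and Ciart, whose products inhibit CLOCK and ARNTL, had 25.9 ± 1.60 and 10.3 ± 1.03 FPKM (SD, n = 3).

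In FPKM, the casein kinase genes Csnk1d and Csnk1e were the most abundant companions. Csnk1d and Csnk1e, whose products phosphorylate PER proteins, had 141 ± 1.69 and 121 ± 0.814 FPKM (SD, n = 3), each above every clock gene in each library. For Csnk1e this order depends on length, since per union of exons it came to 18.001 against 29.8 for Per1 and 18.6 for Nr1d2, and without division by length to 119 fragments per 1000000 against 168 for Per1. Csnk1e also lay below Fbxw11 per longest isoform, at 37.4 against 43.0. Csnk1d stayed the highest companion per longest isoform, at 52.0. It lay below Fbxw11 per union of exons, at 38.05 against 39.95, and below Gsk3b without division by length, at 191 against 222. The kinase gene Gsk3b had 81.5 ± 1.14 FPKM. The ubiquitin ligase genes Fbxw11 and Btrc, which act on PER proteins, had 68.0 ± 0.691 and 10.6 ± 0.527 FPKM. The output genes Nampt, Wee1 and Usp2 had 55.4 ± 0.306, 12.9 ± 0.986 and 6.24 ± 0.291 FPKM (SD, n = 3). Of the 17 companions at or above 1 FPKM, 2 had a dispersion index above 3, namely Wee1 with 3.66 and Tef with 3.54, close to the 9.72% of all genes tested. Wee1 was highest in library 1 and lowest in library 2, and Tef was lowest in library 1.

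**Figure D4:**
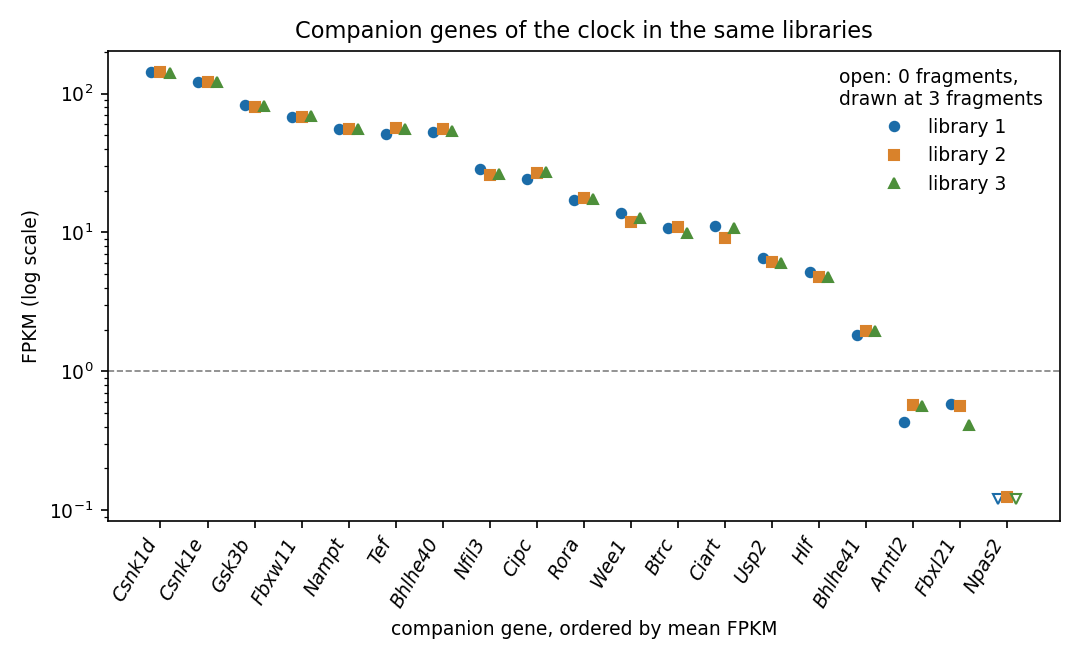
FPKM (y axis, log scale) of companion genes with at least 1 fragment in any library (x axis, ordered by mean) in libraries 1, 2 and 3, with a dashed line at 1 FPKM. Csnk1d and Csnk1e lead at 141 and 121 FPKM, and Arntl2, Fbxl21 and Npas2 lie below the line, where open triangles mark libraries with 0 fragments at the level of 3 fragments.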

How the data were processed

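UMI-RNAseq was measured in 3 libraries of NIH3T3 cells. Per the labels and methods, tags were read with UMI-tools 1.0.0, mapping used HISAT2 2.0.4, copies with the same position and UMI were removed and reads were counted with HTSeq 0.6.1. The authors deposited FPKM, made from these counts and the gene length; the genome build and annotation are not given in the sources used here. Both tables hold the same values, and 0 value columns were left unused.

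No count model was fitted, since FPKM are a normalized unit. Library totals were taken from genes with 1 isoform and 1 fragment. Fragments per gene were FPKM times the mean isoform length in GENCODE M21 (GRCm38, 55480 of 55573 gene IDs found) times the total, accepted within 0.01 of a whole number in each library, which held for 99.2% of 15333 detected genes with several isoforms. On fragments simulated with these same lengths, 3 of 3 totals were recovered, which checks the calculation and not the choice of lengths. With 13959723 to 14423209 fragments per library, a floor of 3 fragments was used for values of 0.

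Levels are given without a test. For the 7 log2 ratios, signs were permuted over the libraries in an exact two-sided test, with Benjamini-Hochberg adjustment. Clopper-Pearson intervals came from scipy 1.17.1, other steps from Python 3.11.15, numpy 2.4.6 and pandas 2.3.3, and figures from matplotlib 3.10.9. The genes named are the 10 clock genes, 22 companions (some are counted but not reported here), genes overlapping a clock gene, and the highest and lowest marker of each list. No gene is named for a similar pattern, because replicates of 1 condition hold none. The clock genes and lists were chosen with earlier results of these data known.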

Additional observations from a re-analysis of the deposited data

How the results depend on the processing

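The results were recomputed under 200 combinations of result and alternative, of which 148 left a level within its SD, a ratio with its sign or a count within 1.5 times. A log2 ratio changed its sign in 7. For Cry1 to Cry2 it was 0.47 in FPKM, -0.19 with the longest isoform or the longest protein-coding isoform, and -0.59 without division by length. For Nr1d1 to Nr1d2 it was -0.56 in FPKM, 0.072 with the longest or the longest protein-coding isoform and 0.11 with the union of exons. For Per2 to Per3 it was -0.11 in FPKM and 0.14 with the union of exons. The divisor is all that differs between these settings. Among the other 45, the levels of all 10 genes moved beyond the SD with rescaling to 1000000 per library and with each of the 3 other gene lengths, and stayed within it with the median, median-of-ratios scaling or any library left out. The count of clock genes with a dispersion index above 3 went from 0 to between 1 and 2 with a library left out, where the index has fewer degrees of freedom and 10.8% to 13.2% of all genes exceed 3, and to 3 with a limit of 2. That limit also raised the share of all genes from 9.72% to 19.9%. Protein-coding isoforms and the union of exons were added after the data were seen. No paired analysis was possible because the 3 libraries belong to a single condition. Dbp, with 174 fragments in all, is the clock gene most limited by depth, and 3 libraries cannot give a p below 0.25.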
